A study of Mus musculus with 19 samples.

Results

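A set of 9 genes that maintain DNA methylation or silence retroelements were followed across mouse visceral yolk sac endoderm (ysE), yolk sac mesoderm, fetal liver and cystic embryoid bodies (cystic EBs). The members were chosen by gene symbol, namely *Uhrf1*, *Hells*, *Trim28*, *Setdb1*, *Zfp57*, *Smchd1*, *Cbx5*, *Mbd2* and *Atrx*. All 9 were in the table of 23337 gene symbols, with 19 of its 30455 RefSeq transcripts, and each gene is represented by whichever transcript had the most reads on average. All 9 transcripts passed the filter on low counts.

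DNA methylation is lost when DNA is copied unless DNMT1 restores it. UHRF1 brings DNMT1 to the newly made strand, and the remodeller HELLS lets methylation reach packed chromatin. At retroelements and imprinted genes, zinc finger proteins such as ZFP57 bind a sequence and recruit TRIM28, which brings the histone H3K9 methyltransferase SETDB1. HP1 alpha (*Cbx5*) binds methylated H3K9, MBD2 binds methylated CpGs, ATRX helps to place histone H3.3 in silent repeats, and SMCHD1 keeps the inactive X chromosome and some imprinted clusters silent.

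RNA-seq covered 11 libraries. The tissues came from FVB mice, with a whole litter pooled for each sample. They were ysE at E9.25 (2 libraries) and E12.5 (1 library), the mesoderm layer of the yolk sac at E9.25 (2) and fetal liver at E12.5 (2). Cystic EBs are hollow aggregates grown from ES cells. They were made from 2 C57BL/6x129 ES cell clones, A9 (XY) and JN (XX), and collected after 10 and 15 days of differentiation, with 1 library for each clone and day. The libraries of clone A9 and of liver were made with the ScriptSeq kit, those of clone JN, E9.25 ysE and mesoderm with a dUTP protocol, and that of E12.5 ysE without strand information. Clone and library kit therefore cannot be told apart in cystic EBs, nor can stage and kit in ysE. No other library shared the kit of E12.5 ysE, so tissue and kit cannot be told apart in its comparisons with liver and cystic EBs. Methylation was measured in E12.5 ysE, E12.5 liver and d15 cystic EBs by whole genome bisulfite sequencing, with 1 library from either cross of CAST and FVB (CxF, FxC), the EBs being grown from ES clones CF-C2 and FC-A2. H3K4me3, a histone mark of active starts, was measured by ChIP in 1 library of whole E12.5 FVB yolk sac pooled from 2 litters.

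Counts summed over transcripts ranged from 40453779 in E12.5 ysE to 169981821 in an E9.25 ysE library, and reads on overlapping transcripts count more than once in these sums. The 10 endoderm markers summed to between 11173.6 and 43787.0 RPKM (reads per kilobase of transcript, scaled to library size) in ysE, 1240.8 and 2199.9 in mesoderm, and 204.9 to 1419.2 in cystic EBs. *Afp*, a defining endoderm marker, stood at 700.4 and 1254.9 RPKM in the mesoderm libraries, so these were not free of endodermal transcripts. The 10 erythroid markers summed to at least 1534.2 RPKM in liver and mesoderm and to at most 58.0 in ysE and cystic EBs. The 9 pluripotency markers summed to between 140.8 and 439.0 RPKM in cystic EBs and to at most 6.55 elsewhere. Fewer cells of a type and less RNA per cell cannot be told apart in such bulk samples.

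In E12.5 yolk sac, each of the 8 members with an annotated start had at least 1 start under an H3K4me3 peak, while the first start of *Zfp57* had none. For *Mbd2* the gene end that carries a peak was taken as the start, so its overlap was set by that choice. The highest peak over a start of *Hells*, *Trim28*, *Zfp57*, *Cbx5*, *Atrx* and *Smchd1* had a score of 3100, a value reached or passed by 24.7% of all 22343 peaks. The second start of *Cbx5* had a score of 840.9 and *Uhrf1* one of 2700.9. *Setdb1* had 670.0 at most, below the median of 862.9. The RefSeq promoter windows (build GRCm38.p6, which is mm10) held 8 of the 9 members. Sequences before 3 starts are shown because they differ in CpG content, the substrate of the pathway, while all 3 carried the mark. Capitals mark CpGs, and each runs 5′ to 3′ on the strand of its gene, for *Uhrf1* over chr17:56303087-56303336 (plus strand), for *Cbx5* over chr15:103239905-103240102 (minus strand) and for *Atrx* over chrX:105929373-105929622 (minus strand).
Uhrf1: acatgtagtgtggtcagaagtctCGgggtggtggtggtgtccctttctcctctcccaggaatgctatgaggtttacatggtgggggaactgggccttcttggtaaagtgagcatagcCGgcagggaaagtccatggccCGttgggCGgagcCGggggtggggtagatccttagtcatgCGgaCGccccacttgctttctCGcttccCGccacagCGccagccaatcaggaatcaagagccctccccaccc
Cbx5: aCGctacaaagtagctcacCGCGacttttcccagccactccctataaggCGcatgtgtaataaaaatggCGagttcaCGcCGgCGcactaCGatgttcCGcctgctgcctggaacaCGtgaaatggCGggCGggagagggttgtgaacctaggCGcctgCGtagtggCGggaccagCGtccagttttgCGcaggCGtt
Atrx: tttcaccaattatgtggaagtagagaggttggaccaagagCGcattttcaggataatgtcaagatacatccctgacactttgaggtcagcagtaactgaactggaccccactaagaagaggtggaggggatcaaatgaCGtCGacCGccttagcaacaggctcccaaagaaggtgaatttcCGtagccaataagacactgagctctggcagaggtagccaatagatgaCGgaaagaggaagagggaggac

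The *Cbx5* stretch, which leaves out the bases inside the annotated gene, held 19 CpGs in 198 bases, against 10 in 250 for *Uhrf1* and 6 in 250 for *Atrx*, the last equal to the median of 6 over all 32851 promoter windows. *Smchd1* and *Hells* had 33 and 28 CpGs in their 250 bases, those of *Hells* lying inside its annotated gene. *Zfp57* had 3 to 7 in the windows of its 3 starts. The windows of the second starts of *Uhrf1* and *Cbx5* held 30 and 7 CpGs, so the order of these genes depends on the start. CCAAT, searched on both strands, was found in 33.8% of all windows and 3 times before *Atrx*. Sites of E2F, the factor family of S-phase genes, were searched as TTTCGCGC, TTTGGCGC, TTTCCCGC and TTTGCCGC on both strands, of which the first and second contain the shorter motif GCGC (found in 42.2% of windows). An E2F motif was found in 1.86% of the windows and, among the members, before the start used for *Hells* and the second start of *Uhrf1*. Both matches lie inside the annotated genes, which begin further upstream, at chr19:38930262 and chr17:56303337. These matches are shown in 30 bases each, with the motif in capitals, 62 bases before the start of *Hells* (chr19:38930917-38930946) and 185 bases before that of *Uhrf1* (chr17:56304117-56304146).
Hells: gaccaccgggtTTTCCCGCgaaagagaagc
Uhrf1: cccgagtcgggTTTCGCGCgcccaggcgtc

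Between tissues, the members did not move as 1 group. *Atrx* and *Cbx5* were low in ysE, *Zfp57* was low in liver, and *Mbd2* was highest in liver. *Uhrf1* was lowest in cystic EBs of clone A9 and in E12.5 ysE, and *Hells* in E12.5 ysE. *Smchd1* changed least, with a 1.58-fold range over the 11 libraries against 16.0-fold for *Atrx*. The test of fold changes was edgeR's quasi-likelihood test, on counts scaled by TMM and adjusted over all transcripts by the Benjamini-Hochberg method (FDR 5%). Scaling factors were 0.766 to 0.816 in ysE and 1.12 to 1.21 in cystic EBs, so log2 changes between these tissues lie below the ratio of their RPKM values. With only 1 library, E12.5 ysE was assumed to vary like the other groups, and no alternative of its comparisons left it out. The p-values measure the spread between pooled litters and between the cystic EB libraries, and part of that spread may be technical. Each transcript has 1 spread over all tissues in the fit. Comparisons without cystic EBs thus also carry the spread between the cystic EB clones. In comparisons of tissues, the d10 and d15 libraries of a clone were entered as separate replicates, although they come from the same ES cells. Their deviations correlated at 0.746. The adjusted p-values of cystic EBs against a tissue thus count more independent units than there were clones. Where clones were compared or 1 clone was taken alone, the cystic EB spread is between d10 and d15 of the same ES cell clone, so these rest on 1 clone per arm.

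**Figure D1:**
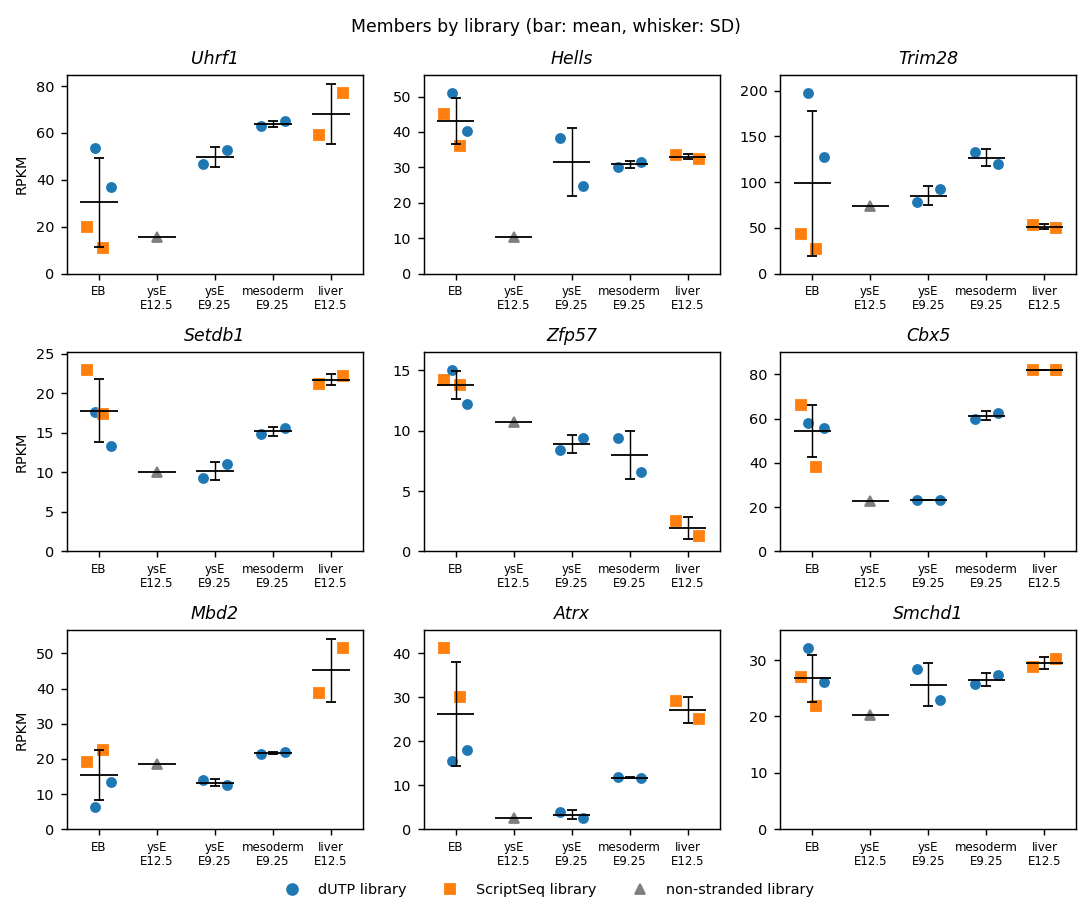
RPKM of each member in each of the 11 libraries, by tissue, with the library kit as colour and shape. Bars are group means and whiskers SD (E12.5 ysE has 1 library). *Atrx* and *Cbx5* were lowest in the ysE libraries, and *Zfp57* in liver, at 2.56 and 1.3 RPKM.

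Against E9.25 ysE, 2 members were higher in cystic EBs and none lower, where 27.1% of 24858 transcripts were called higher and 23.2% lower. Against E12.5 ysE 3 were higher and none lower (21.1% and 18.8% of transcripts), and against liver 1 was higher and 4 were lower (24.6% and 20.9%). In E9.25 ysE against mesoderm 2 members were lower and none higher, with 16.9% and 13.7% of transcripts. E12.5 ysE against liver gave 4 lower and 1 higher (23.7% and 22.6%). E12.5 against E9.25 ysE gave 1 lower and none higher (4.57% and 3.9%). The share of members called was thus near that of all transcripts in several comparisons, and the results below concern single genes.

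**Figure D2:**
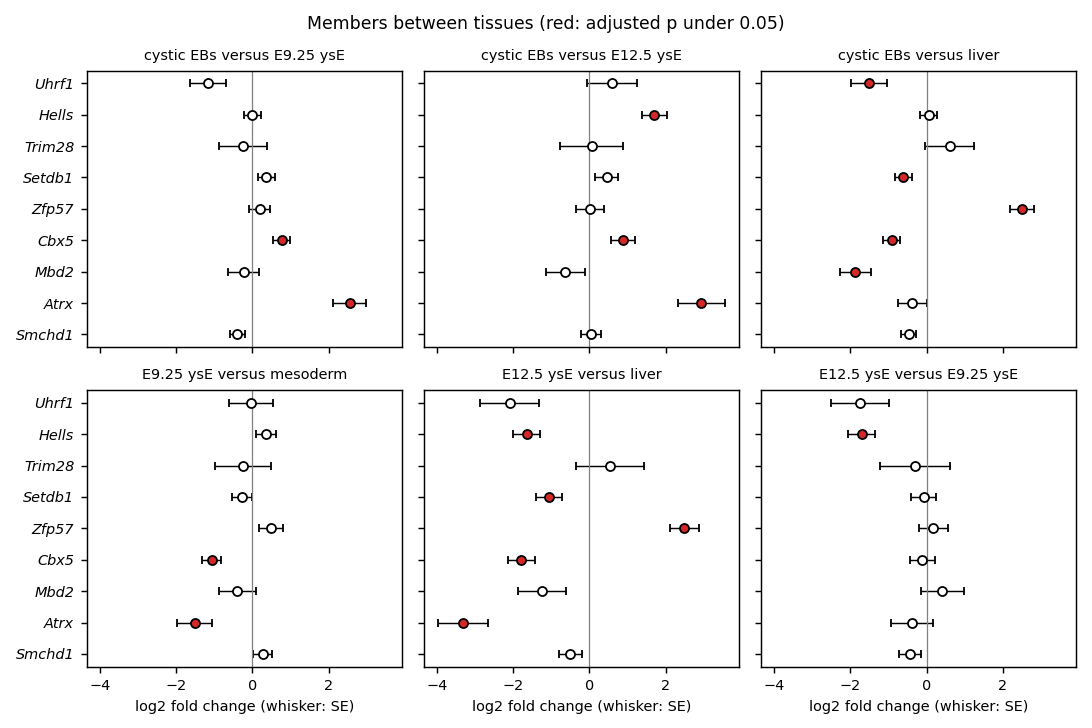
Log2 fold change of each member in 6 comparisons between tissues, with SE as whiskers and calls at an adjusted p under 0.05 in red. *Atrx* lay furthest from 0 in cystic EBs against ysE (2.55 and 2.93) and in E12.5 ysE against liver (-3.31).

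*Uhrf1*, the factor that guides DNMT1 (chr17:56303337-56323486), stood at 46.6 and 52.8 RPKM in E9.25 ysE. Mesoderm had 62.9 and 64.9 and liver 59.2 and 77.2. E12.5 ysE had 15.6. In cystic EBs it was 20 (d10) and 11.1 (d15) in clone A9 but 53.8 and 37.0 in clone JN. In RPKM the A9 libraries and E12.5 ysE were thus below all others, and the JN libraries overlapped E9.25 ysE. On counts scaled by library size and TMM, as in the tests, JN (197.9 and 126.5) lay below E9.25 ysE (231.6 and 259.6). Against E9.25 ysE the log2 change was -1.16 with both clones (adjusted p = 0.0657), which was not called. *Uhrf1* was called lower there with clone JN alone or with a block on the replicate letter, as given below. The cystic EB mean was 30.5 ± 18.9 RPKM (SD, n = 4 libraries of 2 clones). Liver had 68.2 ± 12.8 (n = 2). Cystic EBs fell below liver by 1.5 ± 0.47 (SE) on the log2 scale (adjusted p = 0.0278). The call held in 10 of 15 alternatives. It was lost with liver A, liver B or the d10 A9 library left out, and was larger without the JN libraries, at -2.42 (adjusted p = 0.000164), in the kit shared with liver. It was also lost at an FDR of 1% or with only the 2 groups in the fit. In E12.5 ysE against liver the change was -2.09 ± 0.77 and just missed the threshold (adjusted p = 0.05003). This outcome depends on the transcript, since 2 of the 4 *Uhrf1* transcripts passed as lower (adjusted p = 0.0444 and 0.04621). It also rests on a spread that includes the difference between the clones in cystic EBs.

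*Hells* (chr19:38930262-38970470), the remodeller, was at 10.3 RPKM in E12.5 ysE and at 24.8 or more in every other library. Cystic EBs had 45.1, 51.1, 36.1 and 40.3 RPKM (d10 A9, d10 JN, d15 A9, d15 JN), and here the clones overlapped. E9.25 ysE had 38.4 and 24.8, mesoderm 30.1 and 31.6, and liver 33.6 and 32.5, so the E9.25 ysE pair spanned both mesoderm and liver. It was lower in E12.5 than in E9.25 ysE by -1.70 ± 0.35 (SE) log2 (adjusted p = 0.0193), the only member called between the stages. Without the E9.25 A library this call was lost at -1.29, the smallest change of all alternatives. Another scaling (RLE) moved the median of all transcripts here from -0.21 to -0.04, and the call of *Hells* held. *Hells* was also lower in E12.5 ysE than in liver by -1.65 ± 0.35 (adjusted p = 0.00403) and than in cystic EBs, in which it was higher by 1.70 ± 0.33 (adjusted p = 0.0033). Both calls held in every alternative run, but none of these left out the only E12.5 ysE library or matched its kit.

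The 16 proliferation markers summed to 486.8 RPKM in E12.5 ysE, the lowest of all libraries, and to 792.1 and 793.9 in E9.25 ysE, 584.1 to 883.6 in cystic EBs and 1183.2 and 1519.6 in liver. All cystic EB sums were thus below those of liver, the comparison in which *Uhrf1* was called lower. Single markers differed, and *Bub1* was higher in every cystic EB library than in liver. In E12.5 ysE against liver 9 were lower and 1 higher, beside 23.7% and 22.6% of all transcripts. Between the ysE stages 1 was lower at E12.5 and none higher, beside 4.57% and 3.9%. Markers of other cell types also fell between these stages, 6 of the 10 erythroid (median -2.46) and 4 of the 10 mesoderm and vessel markers (median -2.60). The part of these lists in the values of *Uhrf1* and *Hells* was not tested.

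*Trim28*, the scaffold on which H3K9 methylation is assembled (chr7:13024152-13031032), was the most abundant member in RPKM in mesoderm and ysE. Mesoderm had 133.5 and 120.3 RPKM, E9.25 ysE 78.2 and 92.4, E12.5 ysE 73.5, and liver 53.4 and 49.7. Cystic EBs spanned the whole range, from 27.1 and 43.7 in clone A9 to 127.8 and 197.9 in clone JN. With both clones in the fit, no comparison between tissues passed for *Trim28*, with log2 changes from -0.30 to 0.60 and SEs of 0.63 to 0.91. These are wide intervals and do not show equal levels. The SEs include the spread between the clones, also in comparisons without cystic EBs.

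*Setdb1*, the methyltransferase (chr3:95323525-95357202), had 9.34 and 11 RPKM in E9.25 ysE and 10.1 in E12.5 ysE. Mesoderm had 14.8 and 15.6, liver 21.2 and 22.2, and cystic EBs 22.9 and 17.4 (A9) and 17.7 and 13.3 (JN). In RPKM the ysE libraries were below all others. On counts scaled by library size and TMM, d15 JN (59.2) was below E12.5 ysE (61.7) and E9.25 ysE (60.6 and 70.2). Cystic EBs were not called against E9.25 ysE (log2 change 0.37, adjusted p = 0.209) or E12.5 ysE (0.45, adjusted p = 0.261). *Setdb1* was lower in E12.5 ysE than in liver by -1.06 ± 0.34 log2 (adjusted p = 0.0288), a call lost without either liver library. In cystic EBs it was lower than in liver by -0.61 ± 0.22, with an adjusted p of 0.04998 that passed in only 4 of 15 alternatives.

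*Zfp57*, the zinc finger protein that keeps imprints (chr17:37001163-37010729), was low in liver alone. Liver had 2.56 and 1.3 RPKM. Cystic EBs had 12.2 to 15.0, E9.25 ysE 8.37 and 9.42, E12.5 ysE 10.7, and mesoderm 9.36 and 6.56, none of which overlapped liver. The sum of the 5 blood and macrophage markers was high in liver alone (35.4 and 60.0 RPKM against at most 9.78), though *Csf1r* was highest in E12.5 ysE and *Cd68* in cystic EBs. The part of these markers in the values of *Zfp57* was not tested. It was higher than in liver by 2.50 ± 0.32 log2 in cystic EBs (adjusted p = 0.000311) and by 2.49 ± 0.38 in E12.5 ysE (adjusted p = 0.000794), in every alternative run. The transcript used is non-coding, and the coding transcript with the highest RPKM gave the same picture, with 2.35 and 0.916 RPKM in liver and 8.66 to 17.6 elsewhere. Among cystic EBs the coding transcript was higher in both JN libraries (17.6 and 17.0 RPKM) than in those of A9, while the non-coding one overlapped between the clones.

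*Cbx5*, encoding HP1 alpha (chr15:103191546-103239904), split ysE from the rest. The 3 ysE libraries had 23.0 (E12.5), 23.3 and 23.4 RPKM (E9.25). Mesoderm had 60.0 and 62.7, liver 81.8 in both libraries, and cystic EBs 66.3 and 38.3 (A9) and 58.0 and 55.8 (JN). *Cbx5* was higher in cystic EBs than in E9.25 ysE by 0.77 ± 0.23 log2 (adjusted p = 0.0211), with 0.73 in clone JN, the kit of E9.25 ysE, and 0.70 in clone A9. The call was lost without either E9.25 ysE library. Against E12.5 ysE the change was 0.88 ± 0.31 with an adjusted p of 0.04761 that held in 6 of 12 alternatives. *Cbx5* was lower in E9.25 ysE than in mesoderm by -1.07 ± 0.26 (adjusted p = 0.0128) and lower in E12.5 ysE than in liver by -1.79 ± 0.35 (adjusted p = 0.00267). Cystic EBs were themselves below liver by -0.92 ± 0.22 (adjusted p = 0.00799).

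*Mbd2*, the methyl-CpG reader on chromosome 18, was highest in liver with 38.8 and 51.5 RPKM. All other libraries were at or below 22.5 RPKM. Mesoderm had 21.5 and 21.9, E12.5 ysE 18.6, and E9.25 ysE 13.3 ± 1.1 (SD, n = 2). In cystic EBs clone A9 had 19.2 and 22.5 and clone JN 6.38 and 13.5. Cystic EBs fell below liver in *Mbd2* by 1.87 ± 0.40 on the log2 scale (adjusted p = 0.00448), in all 15 alternatives, with -1.39 in clone A9 and -2.57 in JN. The sum of the blood and macrophage markers followed the same order between liver and the rest. Of the 5, 3 (*Lyz2*, *Ptprc* and *Emr1*) were lower in cystic EBs than in liver, beside 20.9% of all transcripts. The erythroid markers summed to 1534.2 and 3139.1 there, to 2262.6 and 2203.3 in mesoderm and to at most 10.3 in cystic EBs. The part of either list in the result was not tested.

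*Atrx*, the X-linked remodeller (chrX:105797615-105929372), showed the widest range. The ysE libraries had 2.66 (E12.5), 3.98 and 2.57 RPKM (E9.25). Mesoderm had 11.8 and 11.6, liver 29.2 and 25, and cystic EBs 41.1 and 30 (A9) and 15.6 and 17.9 (JN). Every ysE library was below every other library. *Atrx* was higher in cystic EBs than in E9.25 ysE by 2.55 ± 0.44 log2 (adjusted p = 0.00137) and than in E12.5 ysE by 2.93 ± 0.62 (adjusted p = 0.00501), in every alternative. With clone JN alone, in the kit of E9.25 ysE, the change was 1.79 ± 0.23 (adjusted p = 0.000224). It was lower in E9.25 ysE than in mesoderm by -1.51 ± 0.46 (adjusted p = 0.0319) and in E12.5 ysE than in liver by -3.31 ± 0.65 (adjusted p = 0.00296). For *Atrx* and for *Cbx5* the mesoderm comparison lost its call with any 1 of the 4 libraries left out, over changes of -1.90 to -1.23 and -1.13 to -1.01 in all alternatives. Erythroid markers were higher in mesoderm and liver than in ysE, as both genes were, and summed to 2.4 to 10.3 RPKM in cystic EBs and 15.7 to 58.0 in ysE. Summed mesoderm and vessel markers moved with both genes in each of these comparisons. The sums were 30.1 to 79.2 RPKM in ysE, 197.6 to 524.8 in cystic EBs, 1836.7 and 1672.9 in mesoderm and 266.5 and 247.3 in liver. Of these 10 markers, 3 were higher in cystic EBs than in E9.25 ysE (beside 27.1% of all transcripts). Against E12.5 ysE 7 were higher (beside 21.1%). In E9.25 ysE 10 were lower than in mesoderm (beside 16.9%), and in E12.5 ysE 7 were lower than in liver (beside 23.7%). The 3 of 10 thus lie near the share of all transcripts, and *Col1a1* was lower in both d10 cystic EB libraries than in E9.25 ysE. Pluripotency markers were high in cystic EBs only. Heart muscle markers summed to 16.9 to 295.8 RPKM in cystic EBs, 15.6 and 5.96 in liver, 5.45 and 3.02 in mesoderm and at most 0.279 in ysE. The part of these lists in the results was not tested.

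*Smchd1* (chr17:71344489-71475366), which acts on the inactive X chromosome, had 28.4 and 22.9 RPKM in ysE at E9.25, 20.3 at E12.5, 25.7 and 27.3 in mesoderm, and 28.7 and 30.2 in liver. Cystic EBs had 27.0 and 21.9 (A9) and 32.1 and 26.1 (JN). All tissues but E12.5 ysE overlapped a neighbour in the order of means. With both clones in the fit no comparison between tissues was called, with log2 changes between -0.50 and 0.27 and SEs of 0.20 to 0.30.

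The question of culture time was addressed by d15 against d10 cystic EBs. No member passed the test, and edgeR called 0% of the 22452 transcripts in either direction, with 304 at an unadjusted p under 0.05, while DESeq2 called 17. The log2 changes of the members ran from -0.72 to 0.51 with SEs of 0.30 to 0.99. Both days of a clone come from the same ES cells. Within each clone, 7 of the 9 members had a lower RPKM at d15 than at d10, and *Mbd2* a higher one, while *Atrx* went down in A9 and up in JN. The share of all transcripts lower in both clones was not computed, so this count is a description only. The median log2 change of all transcripts was 0. With the clone as a replicate block 0 members were called as well, with 2392 transcripts at an unadjusted p under 0.05. The log2 change was then -0.70 ± 0.14 for *Uhrf1* and -0.67 ± 0.16 for *Trim28* (adjusted p = 0.409 for both).

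Clone JN differed from clone A9 in 3 members. *Uhrf1* was higher in JN by 1.5 ± 0.34 log2 (adjusted p = 0.0409) and *Trim28* by 2.15 ± 0.35 (adjusted p = 0.0167). *Atrx* was lower by -1.15 ± 0.22 (adjusted p = 0.0272). Across all transcripts 7.9% were higher and 4.64% lower. Pluripotency markers summed to 140.8 and 174.3 RPKM in A9 and 439.0 and 299.0 in JN. Proliferation markers summed to 772.5 and 584.1 in A9 and 883.6 and 849.8 in JN. Sums of endoderm markers overlapped, at 567.9 and 1419.2 in A9 and 204.9 and 629.5 in JN. The part of these lists in the clone differences was not tested. *Mbd2* did not overlap between the clones and missed the threshold (-1.16 ± 0.35, adjusted p = 0.0796). Each call rests on 2 libraries a clone. That of *Trim28* was lost without the d10 JN library, that of *Uhrf1* without any 1 of d10 JN, d15 JN and d15 A9, and that of *Atrx* without any 1 of d10 A9, d10 JN and d15 JN.

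Library kit moved with clone, and coverage inside genes moved with both. Read counts per exon part were compared between pairs of libraries, over parts with a mean of 50 reads. Between the d10 and d15 libraries of JN, the log2 count ratio over the 22 parts of *Uhrf1* had an SD of 0.11, and between d10 JN and E9.25 ysE A, which share the kit, 0.10. Between A9 and JN at d10 the SD was 1.88, with ratios from -6.95 to 0.54 along this 1 gene. The same SDs were 0.14, 0.13 and 1.55 for *Trim28* (30 parts) and 0.17, 0.20 and 1.80 for *Setdb1* (25 parts). Over 6158 genes the medians were 0.21, 0.27 and 1.23. Between the d10 and d15 libraries of A9 the SDs were 0.53 for *Uhrf1*, 0.40 for *Trim28* and 0.26 for *Setdb1* (median 0.34). As 1 example, part 17 of *Uhrf1* held 2.89% and 3.24% of the gene's reads in the JN libraries and 2.89% in ysE, but 0.219% and 0.0388% in those of A9.

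**Figure D3:**
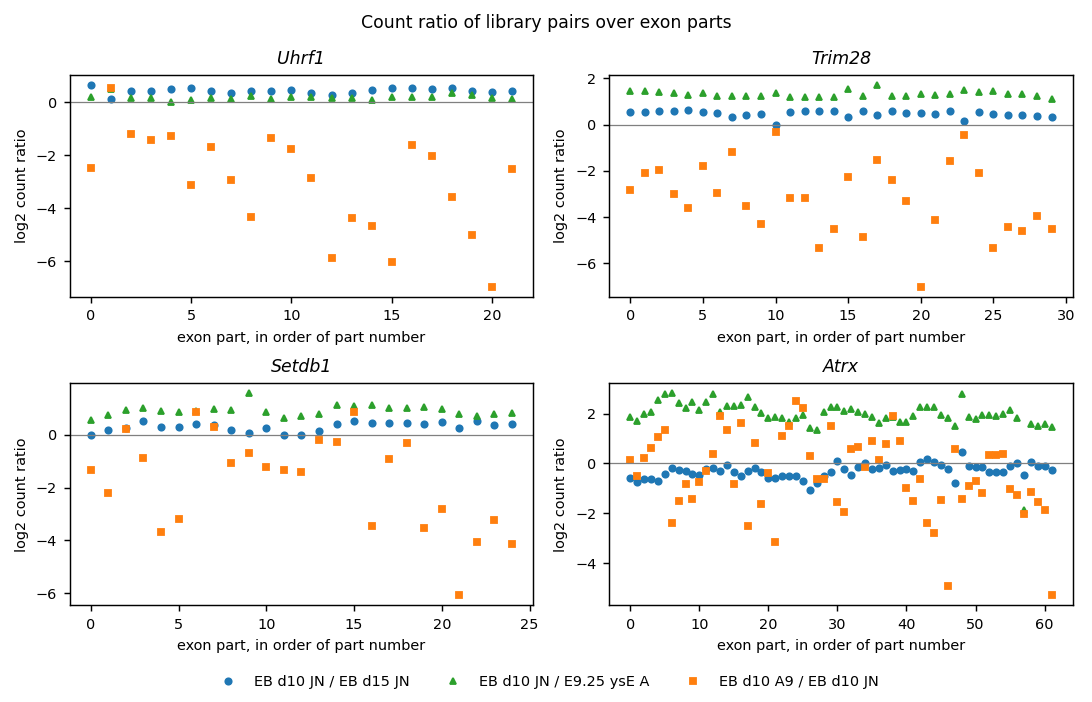
Log2 ratio of read counts between pairs of libraries for each exon part with a mean of 50 reads or more, in the order of part numbers. The pairs of dUTP libraries (circles, triangles) run flat along *Uhrf1*, *Trim28* and *Setdb1*, while A9 against JN (squares) scatters, with SDs of 1.88, 1.55 and 1.80.

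Comparisons within 1 kit are therefore given separately. With clone JN against E9.25 ysE (both dUTP), *Cbx5* (0.73 ± 0.16) and *Atrx* (1.79 ± 0.23) were higher, and *Uhrf1* (-0.67 ± 0.22, adjusted p = 0.0282) and *Mbd2* (-0.99 ± 0.29, adjusted p = 0.0167) lower, where 26.9% of transcripts were higher and 29.5% lower. With clone A9 against liver (both ScriptSeq), *Zfp57* was higher (2.56 ± 0.33) and 5 members were lower, where 27.6% of transcripts were higher and 25% lower. The 5 were *Uhrf1* (-2.42 ± 0.25), *Trim28* (-0.84 ± 0.21, adjusted p = 0.0111), *Cbx5* (-0.94 ± 0.23), *Mbd2* (-1.39 ± 0.18) and *Smchd1* (-0.55 ± 0.17, adjusted p = 0.0239). Across kits, *Trim28* was higher in JN than in liver by 1.29 ± 0.24 (adjusted p = 0.00157), the opposite of A9. Against E9.25 ysE it was lower in A9 by -1.72 ± 0.22 (adjusted p = 0.000232), while JN gave 0.39 ± 0.23 (adjusted p = 0.181).

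**Figure D4:**
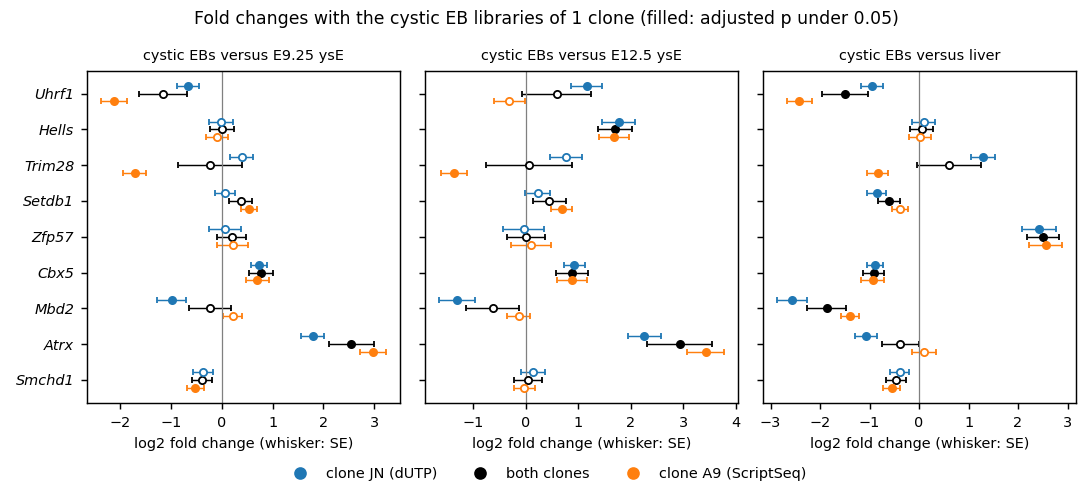
Log2 fold change of cystic EBs against ysE and liver with the libraries of clone JN (blue), clone A9 (orange) or both (black), with SE as whiskers and filled points at an adjusted p under 0.05. *Cbx5*, *Hells* and *Zfp57* hardly moved with the clone, and *Trim28* ran from -1.72 to 0.39 against E9.25 ysE.

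Between d10 JN and E9.25 ysE A, of the same kit, the SDs were largest for *Cbx5* (1.45), *Mbd2* (1.02) and *Atrx* (0.61). Part 5 of *Mbd2* held 0.706% of the gene's reads in ysE and 6.83% and 3.88% in the JN libraries. Part 67 of *Atrx* held 10.5% of the gene's reads in E9.25 ysE A and 0.824% and 0.942% in the JN libraries, with 727 reads against 197 and 272. It was the only one of 62 parts with fewer reads in d10 JN than in ysE, at a log2 ratio of -1.88, while the others ran up to 2.81. Part 10 of *Cbx5* had 3 reads in ysE and 219 and 195 in the JN libraries. These parts were picked after their values were seen, only 1 ysE library held exon counts, and the positions of the parts are not given in the sources used here.

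CpG methylation was uneven between libraries at several starts and higher in most gene bodies. Within 1 kb of the start, 0 of 23 reads at *Uhrf1* were methylated in ysE CxF, which leaves a 95% Wilson interval of 0 to 14.3%. Cystic EBs had 1 of 10 reads methylated there in CxF (1.79 to 40.4%) and 0 of 11 in FxC (upper limit 25.9%). The second *Uhrf1* start, near the E2F motif, had 0 of 20 reads methylated in ysE CxF and 3 of 5 in ysE FxC (23.1 to 88.2%), 63.6% of 22 in cystic EBs CxF (43.0 to 80.3%), 16.7% of 18 in FxC (5.84 to 39.2%) and 10 of 10 in liver FxC. *Cbx5* had 8.33% of 12 reads and 0 of 15 in ysE (upper limit 20.4%). In cystic EBs *Cbx5* had 32.1% of 28 reads (17.9 to 50.7%) and 12% of 25 (4.17 to 30%). This order turned in a window of 500 bases, where cystic EBs had 0 of 12 and 0 of 21 reads methylated and ysE 1 of 9 and 0 of 7. Over all starts with 5 or more reads the medians of the CxF and FxC libraries were 42.9% and 40.0% (ysE), 60.0% and 62.5% (liver) and 75% and 68.8% (cystic EBs). *Trim28* had fewer than 5 reads at its start in every library. Chromosomes 19 and X were not analysed here, nor chromosome 15 in liver, which leaves out *Hells* and *Atrx* and the liver values of *Cbx5*. Reads are counted once for each CpG they cover, so a read over several CpGs counts more than once. The intervals treat these counts as independent and may be too narrow. They also leave out differences between samples.

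The start of *Setdb1* had 8.33% of 24 reads methylated in ysE CxF (2.32 to 25.8%) and 15.4% of 13 and 20% of 25 in liver. In cystic EBs it had 80.0% of 15 reads in CxF (54.8 to 93.0%) and 33.3% of 24 in FxC (18 to 53.3%). The intervals of the clones did not overlap, but they may be too narrow, since neighbouring CpGs can share a read. The start of *Mbd2* was likewise uneven, with 84.6% of 26 reads in cystic EBs CxF and 0 of 14 in FxC (upper limit 21.5%), and 16.1% of 31 and 52.2% of 23 in ysE. Liver gave 23.1% of 13 (8.18 to 50.3%) and 38.6% of 57 (27.1 to 51.6%), with overlapping intervals. The *Zfp57* start, with 7 CpGs in its window, had 6 of 6 reads methylated in cystic EBs CxF and 73.3% of 15 in FxC, while liver gave 16.7% of 6 and 73.3% of 15. The first *Zfp57* start, which had no H3K4me3 peak, had more reads, with 92.1% of 38 and 25 of 25 methylated in ysE, 65.0% of 20 and 60.0% of 35 in liver, and 87.8% of 41 and 78.8% of 33 in cystic EBs. With 2 libraries a tissue an exact permutation test cannot go below a p of 0.33, and none was run.

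In the bodies of the genes, *Smchd1* and *Mbd2* rested on the most reads, 563 to 1071 and 403 to 647 a library. *Smchd1* was methylated at 88.6% and 81.7% (ysE), 91.0% and 87.9% (liver) and 88.5% and 82.1% (cystic EBs). *Mbd2* stood at 85.3% and 83.3% (ysE), 90.4% and 92.1% (liver) and 91.2% and 89.1% (cystic EBs), where both ysE libraries were below the other 4. The paper reports less methylation of exons and introns in ysE than in liver and cystic EBs over all genes. The share of all bodies with this order was not computed. In *Cbx5* ysE (73.9% and 73.5%) and cystic EBs (77.0% and 74.3%) were within each other's intervals. *Uhrf1* at 57.1% of 49 reads in ysE FxC and *Trim28* at 50% of 20 in cystic EBs FxC were the lowest bodies measured.

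**Figure D5:**
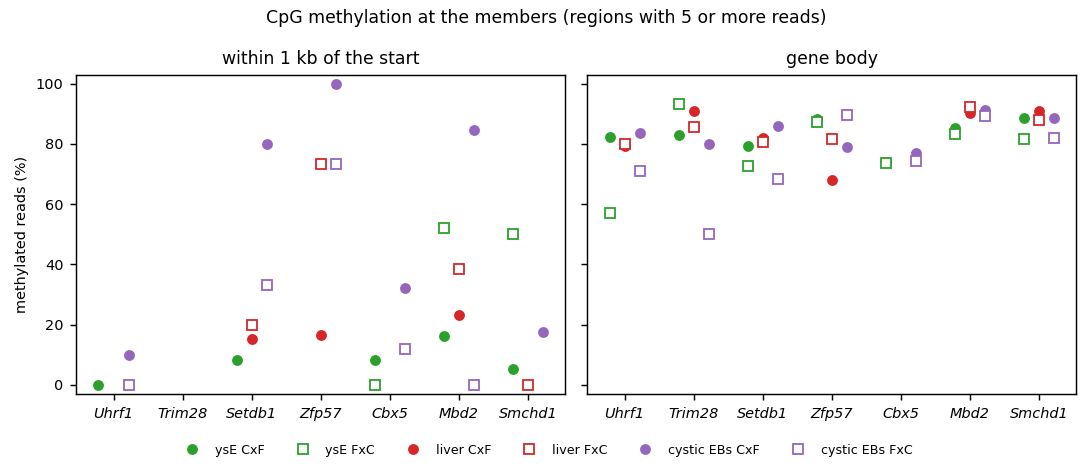
Percent of methylated reads at CpGs within 1 kb of the start and in the body of the 7 members with data, for each library with 5 or more reads. Bodies lay between 50% and 93.3%, while starts ran from 0% at *Uhrf1* to 100% at *Zfp57*.

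The other genes of the pathway were counted in 7 lists. Of the 4 DNA methyltransferase genes, cystic EBs had 2 above E9.25 ysE and 1 below, beside 27.1% and 23.2% of all transcripts, with a median log2 change of 0.45 beside 0.17. *Dnmt3b*, a methyltransferase of new sites, rose by 1.20 ± 0.41 (adjusted p = 0.0352), and *Dnmt3a* fell by 0.80 ± 0.19 (adjusted p = 0.0068). *Dnmt3l*, their cofactor, had 6.07 to 30.7 RPKM in cystic EBs and at most 0.078 in every other library. The maintenance enzyme itself, *Dnmt1*, was highest in liver (96.2 and 113.6 RPKM), where cystic EBs were lower by -1.52 ± 0.24 (adjusted p = 0.000938) and E12.5 ysE by -1.0 ± 0.37 (adjusted p = 0.04824).

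Among the 7 maintenance partners, 2 rose and 1 fell in cystic EBs relative to E9.25 ysE, where 27.1% of all transcripts were higher and 23.2% lower. *Cdca7l*, a relative of the HELLS partner CDCA7, had 0.488 to 1.22 RPKM in the ysE libraries and 5.83 to 19.3 in all other libraries, a pattern with ysE lowest like that of *Atrx* and *Cbx5*. It was higher in cystic EBs than in E9.25 ysE by 2.39 ± 0.26 (adjusted p = 0.000114) and lower in E9.25 ysE than in mesoderm by -2.38 ± 0.28 (adjusted p = 0.000397). In the same comparison 3 of 8 H3K9 methylation genes rose and 1 fell, beside the same shares. *Ehmt2*, a methyltransferase of H3K9, ran opposite to *Setdb1* between E12.5 ysE and liver, with 67.2 RPKM in E12.5 ysE against 21.6 and 17.3 in liver (1.82 ± 0.26, adjusted p = 0.0006). *Atf7ip*, a partner of SETDB1, was lower in E12.5 ysE than in liver by -2.25 ± 0.31 (adjusted p = 0.000464).

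Of the 6 measured genes listed for HP1, the HUSH complex and MORC proteins, 5 were lower in E12.5 ysE than in liver and none higher. This stood beside 23.7% and 22.6% of all transcripts, with a median of -1.21 beside -0.26. *Mphosph8*, the H3K9me3 reader of HUSH, was lower by -2.62 ± 0.78 (adjusted p = 0.0207). The 18 methyl-CpG binding and NuRD genes moved both ways, with 5 above and 2 below E9.25 ysE in cystic EBs, beside 27.1% and 23.2% of all transcripts, and 3 above and 7 below liver, beside 24.6% and 20.9%. Of the 8 genes for ATRX partners and histone chaperones, 1 rose and none fell in cystic EBs relative to E9.25 ysE. The shares of all transcripts there were 27.1% and 23.2%. *Daxx*, the partner of ATRX, named after its values were seen, was not called and had 7.0 to 12.2 RPKM over the 11 libraries. Of the 13 measured genes for KRAB zinc fingers and genome defence, cystic EBs had 7 above and 1 below liver. Among all transcripts 24.6% were higher and 20.9% lower, and the median was 1.01 beside 0.20. *Tex19.1*, which acts against retroelements in germ cells, had 64.1 RPKM in ysE at E12.5, 9.39 and 8.41 at E9.25, and at most 0.045 in liver. *Apobec3* had at most 0.259 RPKM in ysE and 2.91 to 10.4 elsewhere.

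Between the clones, 3 of the 7 maintenance partners were higher in JN and none lower, beside 7.9% and 4.64% of all transcripts. *Pcna*, the replication clamp, was higher by 2.07 ± 0.28 (adjusted p = 0.0101), with 142.0 and 100.3 RPKM in JN against 32.4 and 23.1 in A9. *H3f3a*, a gene of the H3.3 histone that ATRX places, was higher by 3.73 ± 0.22 (adjusted p = 0.000495), and *Cbx3*, another HP1 gene, by 2.50 ± 0.23 (adjusted p = 0.00243). *Mphosph8* was lower by -1.58 ± 0.23 (adjusted p = 0.0123). Kit and clone cannot be told apart in these values either.

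Over the 11 libraries, the genes most like a member were sought among 11951 others by Pearson's r of log2(RPKM + 1), as a description of points that share kit and tissue. *Uhrf1* was most like *Mcm7* (r = 0.969), *Rpa1* and *Ska1*. *Mcm7*, a subunit of the replication helicase, had 99.9 and 81.7 RPKM in JN and 22.3 and 13.5 in A9, and ysE had 29.5 at E12.5 against 87.8 and 100.3 at E9.25. *Cbx5* was most like *Tmem164* (0.988), *Frat1* and *Tcf3*, and *Setdb1* like *Dicer1* (0.977), *Tex9* and *Setd1a*. *Mbd2* was followed by *Pole3* (0.980), *Add1* and *Stim1*, *Zfp57* by *Rab31* (0.970), *Yap1* and *Snord2*, and *Trim28* by *Bag6* (0.946), *Mrpl21* and *Ndnl2*. For *Hells* these were *Taf1d* (0.958), *A630089N07Rik* and *Tex10*. *Smchd1* had no gene above *Ddx51* (0.892), followed by *Pfas* and *Mdn1*. Among the members, *Setdb1* and *Atrx* were the most alike (0.914) and *Zfp57* and *Mbd2* the least (-0.805).

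Reads on retroelements outside genes were counted in the 6 dUTP libraries, as a share of all reads on repeats other than RNA genes. IAPEz-int, the internal part of an endogenous retrovirus that TRIM28 and SETDB1 silence in ES cells, held 28.1% and 27.9% of them in the ysE pair, 20.1% and 18.9% in the mesoderm pair, and 13.8% and 17.8% in cystic EBs of clone JN. Its share was highest in ysE, with no overlap. The other 4 elements ran the other way in ysE. L1Md_T, a young LINE-1, held 6.56% and 5.15% in ysE against 12.9% and 12.6% in mesoderm and 15.9% and 17.1% in cystic EBs. MERVL-int held 3.01% and 2.74% in ysE, 5.10% and 5.01% in mesoderm and 8.08% and 6.88% in cystic EBs, and ETnERV-int 0.316% and 0.271%, 1.17% and 1.54%, and 2.95% and 1.97%. MMERVK10C-int was at 0.221% to 0.508% in all 6. A share falls when another element rises, and no test was run on these values.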

How the data were processed

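RNA-seq, bisulfite sequencing and H3K4me3 ChIP-seq files were used as deposited. The authors aligned reads with GSNAP to mm10 and deposited raw counts and RPKM values per RefSeq transcript, raw counts per exon part (1 ysE file of zeros left out) and per repeat element. They deposited the percent of methylated reads with the read number per CpG and strand, and peaks with the score of MACS 1.4.2. Overlapping transcripts share reads, which cannot be split here. Counts were fitted with edgeR 4.0.16 in R 4.3.3 (filterByExpr, TMM, 11 libraries in 5 tissue groups, or the 4 cystic EB libraries for day and clone), and with DESeq2 1.42.0 as another tool. Scripts were tested on simulated data. A region's methylation is the percent of reads called methylated, summed over its CpGs, so that a read counts once for each CpG it covers. It is given with a Wilson interval where this sum of reads was 5 or more. The members and gene lists were chosen with earlier results of these data known. Named are all members, from each list at most the 2 largest called changes in each direction, and the 3 genes most like a member (those of *Atrx* are not reported here). Same-letter replicates were checked for pairing: the correlation of deviations was -0.103 between ysE and mesoderm, -0.0121 between ysE and liver, and 0.746 between the d10 and d15 libraries of a clone. No annotation of start was given for *Mbd2*, whose gene end with an H3K4me3 peak was used.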

Additional observations from a re-analysis of the deposited data

Results flagged for a closer look

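For 3 members the difference between cystic EBs and any 1 tissue depended on the ES cell clone, by the test of clone JN against A9 with 2 libraries each. *Uhrf1* differed by 1.5 on the log2 scale, *Trim28* by 2.15 and *Atrx* by -1.15, JN minus A9 (adjusted p = 0.0409, 0.0167 and 0.0272, edgeR's quasi-likelihood test). For *Trim28* the clones lay on opposite sides of liver, while against E9.25 ysE A9 was lower and JN was not called (0.39, adjusted p = 0.181). For *Atrx* both clones were above ysE. Library kit moved with clone in all of these, so the clones and the kits cannot be told apart. No member had a cystic EB library far enough from the other 3 to stand apart by Dixon's criterion (9 members examined). The criterion looks for a single distant value. Where the clones differ, with 2 libraries each, it can hardly be met, so no conclusion is drawn from it.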

How the results depend on the processing

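Of the 9 members, 2 were called in cystic EBs against E9.25 ysE. This became 1 at an FDR of 1% (32.6% of all transcripts called) or with only the groups compared in the fit (46.1%). It became 4 with clone JN alone (56.4%) and 6 with clone A9 alone (64.6%, added after seeing the data). With each library left out it was 1 to 3 (30.9% to 52.3%). Against E12.5 ysE the count of 3 became 5 with either clone alone (51.2% of all transcripts with JN and 54.9% with A9, both added after seeing the data), and *Cbx5* lost its call in 6 of 12 alternatives (FDR 1%, RLE, no filter, only the groups compared, without d10 A9 or d10 JN). Against liver the count of 5 became 3 at an FDR of 1% (27.3% of all transcripts) or with only the groups compared (37.6%). It was 3 to 5 with each library left out (26.9% to 48.5%). The 2 calls between E9.25 ysE and mesoderm became 0 at an FDR of 1% (17.4% of all transcripts) and 0 with each library left out (16.4% to 19.8%). The call between ysE stages became 0 at 1% (1.9% of all transcripts) and 3 with only the groups compared, where 50.2% of all transcripts were called. It was 0 to 1 with a library left out. The 3 calls between clones became 0 at 1% (2.81% of all transcripts) and 0 to 2 with a library left out (2.35% to 11.8%). A block on the replicate letter gave each letter 1 common effect over all tissues but E12.5 ysE, which was left out. Letters are a pairing only for the days of a clone. Same-letter deviations correlated at -0.103 between ysE and mesoderm and -0.0121 between ysE and liver. With this block the counts were 3 against E9.25 ysE (53.7% of all transcripts called) and 4 against liver (48.2%). They were 2 for ysE against mesoderm (33.4%) and 0 between days (0%). *Uhrf1* then passed against E9.25 ysE (-1.32, adjusted p = 0.0191) and *Setdb1* no longer passed against liver. No fold change of a member called with both clones reversed in any alternative. *Trim28*, not called against liver with both clones (0.60), was lower with A9 alone (-0.84) and higher with JN alone (1.29).

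Over all transcripts, DESeq2 called 4018 against 2106 between ysE stages and 5516 against 2815 between clones. With only the groups compared the counts were 13160 against 7613 for ysE and mesoderm, 10559 against 2106 between stages and 6344 against 9932 for cystic EBs and E12.5 ysE. At an FDR of 1% they were 8097, 5794, 6793, 4315, 7463, 472 and 632, in the order of cystic EBs against E9.25 ysE, E12.5 ysE and liver, ysE against mesoderm, E12.5 ysE against liver, the stages and the clones. RLE scaling turned the split between stages from 969 higher and 1137 lower to 1240 and 876. With 1 library left out, the count for cystic EBs against E9.25 ysE was 7793 or 7603 without a ysE library (12500 with all), against liver 6668 without liver B (11297), for ysE against mesoderm 4021 to 4869, between stages 349 and 390, and between clones 528 without d10 JN and 836 without d15 JN. Of 68 methylation values under the alternatives, 7 were marked as moved. Several of these rested on 1 library, which has no spread to exceed. Leaving out 1 of 2 libraries cannot move a mean by more than their SD, so those values could only come out as unmoved.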
